A study of Mus musculus with 6 samples.

Results

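The glutathione S-transferases described here are 5 genes of the mu class, *Gstm1*, *Gstm2*, *Gstm3*, *Gstm5* and *Gstm7*, and 1 gene of the omega class, *Gsto1*. Each was found by its gene symbol in the platform annotation and is read by 1 transcript cluster, the set of probes with which the array measures a gene. The 6 transcript clusters are 6 of the 6951 on the deposited table, and no transcript cluster annotated to several genes carries one of these symbols. The genes were selected on the measured difference between *Kap1* knockdown and control on these same arrays, where each was higher in the knockdown. Their differences in that comparison are therefore given as a description and without a test. There was no stated cut-off, but *Gstm2* is the member nearest the fold of 1.4 at which the study called genes, and *Gstm6*, with a fold of 1.37, is the mu gene just under it. *Gstm4*, with a fold of 1.78, is not among the 6 genes and is described beside them.

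The samples were Neuro-2A (N2A) cells, a mouse neuroblastoma line, in 2 groups of 3 arrays. Control cells received a plasmid expressing a scrambled shRNA, and knockdown cells one expressing the shA hairpin against *Kap1*, the gene *Trim28*; both groups also received a hygromycin resistance plasmid. Cells were given 1.5 µg of shRNA plasmid, entered hygromycin 3 days later and were collected after another 7 days, so every sample is a pool of resistant cells and the arrays test a single hairpin. The replicates are called triplicates, and nothing says that they were separate transfections, so spreads between them may be technical. *Trim28* stood at 3377, 3443 and 3267 in control replicates 1, 2 and 3 and at 866, 861 and 936 in the knockdown, which is 26.4% of the control level in array intensity. The study reports a larger reduction with this hairpin by qRT-PCR of the transcript and by Western blot of the protein, which are other measures.

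The values are linear intensities after Robust Multi-array Average (RMA) normalisation. Array medians lay between 505 and 553. Every transcript cluster on the table had an adjusted p of at most 0.05 for knockdown against control (limma, Benjamini-Hochberg, largest value 0.0365), and the smallest log2 difference in size was 0.118. The table is thus a list already selected on this comparison, and it says nothing about genes outside it. Adjusted p-values given below were computed on this selected list and are not a fresh test of any gene. Standard errors from the same fit may be too small. Genes other than the 6 are said below to have risen or fallen where the adjusted p was at most 0.05 and the fold at least 1.4, a log2 difference of 0.485; on this table the fold alone decides. By that rule 32.6% of transcript clusters changed, 15.0% higher and 17.6% lower in the knockdown.

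Of the sympathoadrenal markers that define a neuroblastoma line, 12 were on the table. Their summed intensity ranged from 24420 to 25255 on control arrays and from 22352 to 23557 on knockdown arrays. That sum is weighted towards the brightest genes, *Chga* and *Stmn2*. Of the 12, 3 rose and 5 fell, beside 15.0% and 17.6% of all transcript clusters, and whether the list stands apart was not tested. Those that fell were *Isl1* (to 28.2% of the control level), *Gata3* (40.7%), *Mycn* (42.3%), *Phox2a* (50.4%) and *Chga* (67.9%). Those that rose were *Th* (to 222%), *Dbh* (159%) and *Gata2* (141%). Markers of other cell types on the table were few, and those not on it have no value here. For glia it was 1 of 12 (*Sox9*, 1097 to 1138 in the control and 435 to 533 in the knockdown). For fibroblasts 2 of 8 had a row (sum 5246 to 5800 and 3114 to 3273), and *Fn1* alone gave 5139 to 5690 and 3018 to 3178. For macrophages it was 1 of 7 (*Cd68*, 132 to 149 and 94 to 102). All 3 sums were lower in the knockdown. Those for glia and macrophages rest on 1 gene each and that for fibroblasts mostly on *Fn1*, on a table selected on this comparison. The part of other cell types in the transferase values was not tested.

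Glutathione S-transferases join the tripeptide glutathione to reactive, often toxic, molecules, which makes these water soluble and ready for export. The mu class enzymes are cytosolic dimers encoded by a compact cluster of similar genes. The omega class uses a cysteine at its active site and acts more as a thiol transferase and reductase. In many tissues transferase genes are induced by NRF2, a transcription factor that pairs with small MAF proteins at antioxidant response elements, or by the aryl hydrocarbon receptor with its partner ARNT at xenobiotic response elements. KAP1 is a corepressor that zinc finger proteins bring to chromatin, where it assembles the machinery for histone H3 lysine 9 trimethylation.

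The mu genes lie on chromosome 3 (GRCm38.p6, chr3:107895854-108045179), where RefSeq places 7 of them within 149 kb in the order *Gstm5*, *Gstm7*, *Gstm6*, *Gstm3*, *Gstm2*, *Gstm1* and *Gstm4*, with no other coding gene between them. *Gsto1* lies on chromosome 19 (chr19:47854973-47864790), next to *Gsto2*. The promoter windows in RefSeq, 250 bases before to 50 after each annotated start, were searched on both strands for the antioxidant response element core TGACNNNGC, the AP-1 site TGANTCA and the xenobiotic response element core GCGTG. The windows of 3 genes are printed because they differ in which of these motifs they hold. *Gstm5* holds all 3 motifs, *Gstm7* holds the antioxidant core at one of its 2 starts, and *Gstm1*, the member with the highest fold, holds only the xenobiotic core. Capitals mark the matches.
Gstm5 (chr3:107895604-107895903, plus strand): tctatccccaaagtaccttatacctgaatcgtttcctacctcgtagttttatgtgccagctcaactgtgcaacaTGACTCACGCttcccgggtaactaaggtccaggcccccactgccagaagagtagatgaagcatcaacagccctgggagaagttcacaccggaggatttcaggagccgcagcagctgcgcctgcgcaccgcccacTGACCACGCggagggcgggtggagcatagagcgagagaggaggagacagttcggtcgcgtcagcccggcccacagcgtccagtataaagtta
Gstm7, second start (chr3:107931565-107931864, minus strand): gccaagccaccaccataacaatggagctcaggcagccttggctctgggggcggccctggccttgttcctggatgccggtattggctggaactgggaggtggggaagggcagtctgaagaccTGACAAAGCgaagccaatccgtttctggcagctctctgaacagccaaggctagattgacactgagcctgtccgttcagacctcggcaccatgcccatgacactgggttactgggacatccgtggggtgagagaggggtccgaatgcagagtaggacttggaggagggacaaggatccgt
Gstm1, first start (chr3:108017924-108018223, minus strand): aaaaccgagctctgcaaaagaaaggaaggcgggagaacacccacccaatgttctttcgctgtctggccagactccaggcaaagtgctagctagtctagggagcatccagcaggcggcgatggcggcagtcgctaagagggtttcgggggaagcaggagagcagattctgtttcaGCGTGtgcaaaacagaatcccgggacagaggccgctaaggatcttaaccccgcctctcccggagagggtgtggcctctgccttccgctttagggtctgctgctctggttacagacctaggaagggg

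With positions counted from 0 at the annotated start, the first capitals in the *Gstm5* window are TGACTCA, beginning at -176, which runs into CACGC, the xenobiotic core on the other strand. The second are TGACCACGC, an antioxidant core beginning at -42, which again ends in CACGC. The *Gstm7* match is TGACAAAGC, at -129 from its second start, and the *Gstm1* match is GCGTG, at -76 from its first start; its second start also has only this motif, at -231. *Gstm2*, *Gstm3* and *Gsto1* had no match to any of the 3 motifs, and neither did *Gstm4* or *Gstm6*. The antioxidant core was thus found in 2 of the 6 genes, against 14% of all 27025 genes with a RefSeq window, the AP-1 site in 1 against 8.97%, and the xenobiotic core in 2 against 35.2%. Counted by window, these motifs were in 12.4%, 7.81% and 32.4% of 32851. A match of these letters is a description and not a binding site. Nor does the lack of a match show that a gene lacks the element. The same search found no antioxidant core in the window of *Nqo1*, a textbook NRF2 target, but 1 in that of *Gclm*, another. Over the first window of each gene, alignment identity ran from 41.0% to 47.6% between mu genes (21 pairs). Between mu genes and *Gsto1* (7 pairs) it ran from 41.9% to 48.9%, so the 2 ranges overlapped. Windows of further starts were not aligned, and neither were unrelated sequences. Whether the mu promoters are more alike than these values was therefore not tested.

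*Gstm1*, the classical inducible mu transferase of mouse tissues, had intensities of 264, 197 and 180 in control replicates 1, 2 and 3 and of 571, 606 and 579 in the knockdown. All 3 knockdown arrays lay above the controls, and the controls were the more scattered group, with replicate 1 highest. The means were 214 ± 44.4 (SD, n = 3) and 585 ± 18.3 (SD, n = 3), a log2 difference of 1.47 with a standard error of 0.12. Only 36 of the 6951 transcript clusters had a larger rise. Control replicate 1 also had the highest array median, 553, against 531 and 505 in the other controls, and the *Gstm1* difference was 1.64 without it and 1.36 without control replicate 3. With the arrays centred on their medians it was 1.50, and after quantile normalization 1.51.

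*Gstm5*, a mu transferase known for its expression in brain and testis, had 508, 490 and 387 in the control and 923, 922 and 888 in the knockdown. Here it was control replicate 3 that stood lowest, while the knockdown arrays nearly coincided. The means were 462 ± 65.3 (SD, n = 3) and 911 ± 19.9 (SD, n = 3), and the log2 difference was 0.99 (standard error 0.094). It was 0.87 without control replicate 3. RefSeq places the non-coding gene *4933431E20Rik* across *Gstm5*, and signal from the pair was not separated.

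*Gsto1*, the omega enzyme, had 99, 95 and 99 in the control and 177, 185 and 189 in the knockdown. Its controls were the tightest of the 6 genes on the log2 scale, with an SD of 0.034. The log2 difference was 0.91 (standard error 0.051), from 97.7 ± 2.31 (SD, n = 3) to 184 ± 6.11 (SD, n = 3). *Gstm7*, whose product is another cytosolic mu transferase, had 127, 130 and 123 in the control and 211, 206 and 200 in the knockdown. Its groups were far apart for their spread, and the log2 difference was 0.70 (standard error 0.050).

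*Gstm3* had 107, 105 and 98 in the control and 214, 176 and 181 in the knockdown, with knockdown replicate 1 well above the other 2 arrays of its group. The log2 difference was 0.88 (standard error 0.078), and 0.79 without that array. The transcript cluster named *Gstm3* also differs from the rest in its number. Of the 20 annotated transcript clusters nearest to it by number, 19 belong to genes of chromosome 10 and 0 to chromosome 3, whereas for the other 6 mu genes 17 to 19 of 20 belong to chromosome 3. Which copy its probes read was not tested.

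*Gstm2* was the member with the smallest difference. It had 513, 455 and 485 in the control and 708, 679 and 674 in the knockdown, which do not overlap, and the log2 difference was 0.51 (standard error 0.058). Of the 6 genes it was the one whose place above the fold of 1.4 depended on single arrays: the log2 difference was 0.46 without control replicate 2 and 0.48 without knockdown replicate 1. The other 5 stayed above that fold whichever array was left out.

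**Figure D1:**
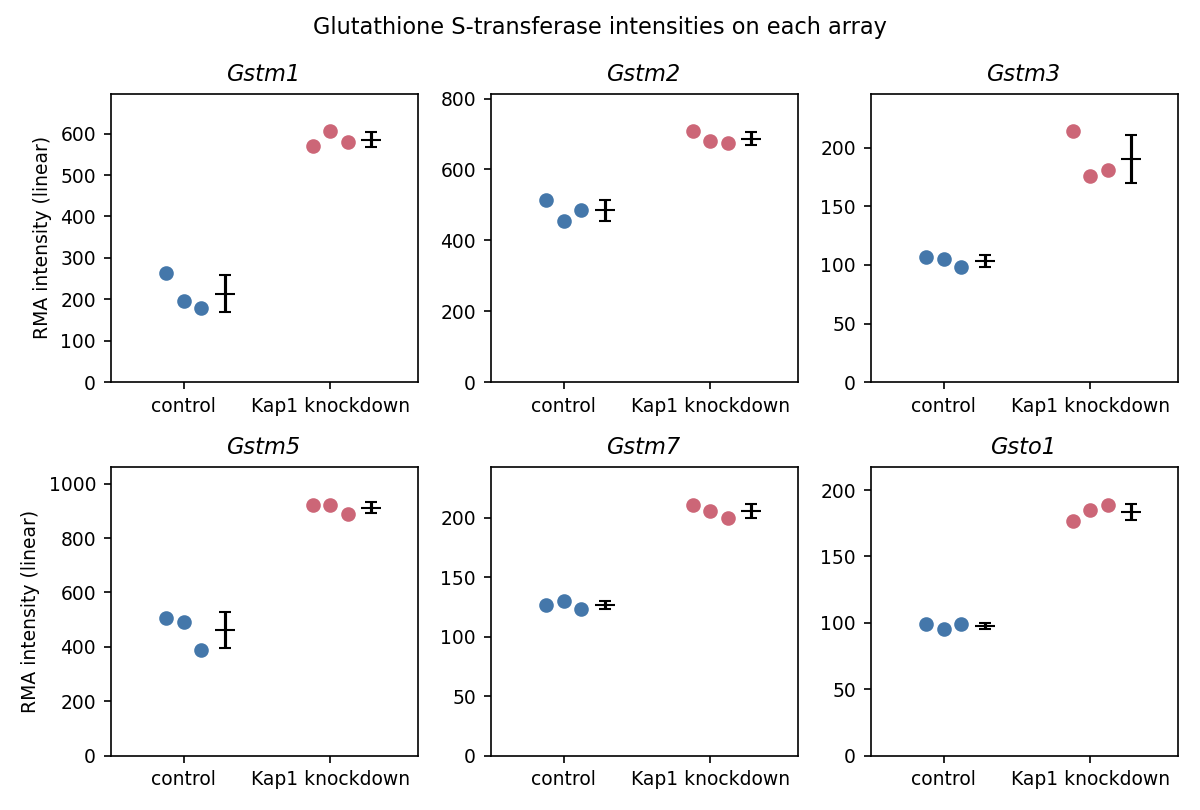
RMA intensity (linear scale from 0, a separate scale for each gene) of the 6 transferases on each of the 3 control arrays (blue) and 3 *Kap1* knockdown arrays (red); the black bar beside each group is its mean with SD. For all 6 genes the knockdown arrays sit above the control arrays, as for *Gstm1* (264, 197 and 180 against 571, 606 and 579).

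All 6 genes had groups that do not overlap and lay past the adjusted p and the fold of 1.4. These counts restate how the genes were chosen. On the table as a whole 51.3% of transcript clusters had all 3 knockdown arrays above all 3 control arrays and 48.7% had them below, so separation of the groups is a property of the table. The median log2 difference of the 6 genes was 0.89, beside 0.165 over all transcript clusters. A median above that of the table also follows from choosing genes that were higher. The members share a direction by choice, and they differed in size. The knockdown level was 2.78 times the control for *Gstm1*, 1.84 to 1.99 times for *Gstm5*, *Gsto1* and *Gstm3*, 1.62 times for *Gstm7* and 1.42 times for *Gstm2*. The log2 differences of *Gstm5*, *Gsto1* and *Gstm3* overlapped within 1 standard error. Probe intensities of different genes cannot be ranked against each other, and similar mu copies may share signal, so these folds may not be independent of each other.

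The 5 genes whose profile over the 6 arrays was most like that of *Gstm1*, by the root mean square difference of log2 intensities centred on the control mean, were *Bhlhe41*, a transcriptional repressor (0.073), *Wdr19* (0.075), *Spata6* (0.076), *Lncenc1* (0.094) and *Ttc26* (0.106). In each of them control replicate 1 was the highest control and replicate 3 the lowest, as in *Gstm1*. The control arrays enter the measure by which these genes were picked, so this shared order restates the choice. Of the 5 other members the nearest was *Gstm5*, at 0.359 and in place 124 among transcript clusters of a single other gene. *Gstm2* was the farthest of the 5, at 0.699.

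Outside the 6 genes, 7 transcript clusters with a transferase symbol were on the table. *Gstm4*, the mu gene at the far end of the cluster, had 559, 570 and 542 in the control and 969, 1030 and 978 in the knockdown, a log2 difference of 0.83 (standard error 0.051, adjusted p = 7.46e-07 from limma). RefSeq places the non-coding genes *Gm36498* and *Gm25592* across *Gstm4*, and their signal was not separated. *Mgst2*, a microsomal transferase that belongs to a separate protein family in membranes, had 130, 131 and 144 against 247, 244 and 269, a log2 difference of 0.91 (standard error 0.063, adjusted p = 1.61e-06 from limma). Both rose. Their values were known when they were chosen for description, so they add no independent support.

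*Gstm6* had 70, 80 and 73 in the control and 101, 93 and 113 in the knockdown. Its log2 difference of 0.46 was under the fold, but it reached 0.49 after median centring of the arrays and 0.53 without knockdown replicate 2. *Gstz1*, the zeta enzyme of tyrosine breakdown, had 0.43, and the 2 transcript clusters shared by *Gstp1* and *Gstp2*, the pi class, had 0.25 and 0.26. Of the 7 transcript clusters with a transferase symbol, *Gstk1*, the kappa enzyme of mitochondria and peroxisomes, lay on the other side of 0. It had 163, 161 and 161 in the control and 136, 135 and 130 in the knockdown, a log2 difference of -0.27. So 7 of 7 mu genes had higher means in the knockdown (51.3% of all transcript clusters did) and 6 were past the fold (15.0%), but 5 of the 7 had been chosen for being higher, so nothing is read from these counts. The zeta, pi and kappa transcript clusters stayed under the fold, and the difference between classes was not tested. A wider list of other cytosolic and mitochondrial transferases had 4 of 22 genes on the table. Beside *Gstk1* and *Gstz1* these were *Gdap1* (-0.25) and *Eef1e1* (0.20), both under the fold.

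**Figure D2:**
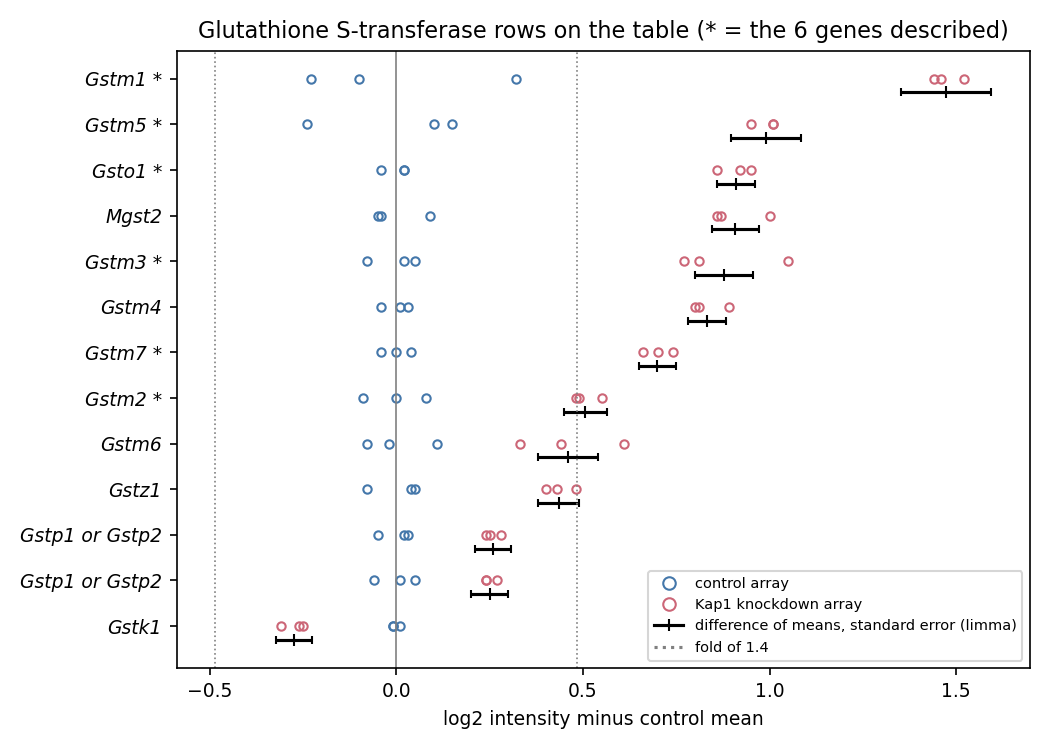
Log2 intensity minus the control mean for the 13 transferase transcript clusters on the table; open circles are arrays (blue control, red *Kap1* knockdown), the black bar is the difference of means with its limma standard error and the dotted lines mark a fold of 1.4. The mu genes run from 0.46 (*Gstm6*) to 1.47 (*Gstm1*), and *Gstk1*, at -0.27, is the transcript cluster below 0 among those drawn.

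The gene order around the cluster was examined to see whether coding neighbours moved with it. Of the 10 coding genes on each side of the mu cluster, 2 were on the table. *Csf1*, which encodes the macrophage growth factor M-CSF and lies at -155 kb from *Gstm5* by their starts, fell with a log2 difference of -1.47 (standard error 0.060, adjusted p = 5.08e-08 from limma). *Gnai3*, a G protein subunit on the other side, had 0.28, under the fold. Of the 20 coding genes around *Gsto1*, 6 were on the table, and none passed the fold: *Neurl1a* (0.24), *Xpnpep1* (0.38) and *Mxi1* (0.21) were above 0, and *Sh3pxd2a* (-0.43), *Stn1* (-0.24) and *Slk* (-0.32) below. They flank *Gsto1* in gene order but are not all close to it. By their starts *Slk* is the nearest, at -275 kb, while *Xpnpep1* and *Mxi1* lie at 5076 and 5455 kb. *Gsto2*, the second omega gene and the next coding gene after *Gsto1*, had no row of its own. In all, 8 flanking genes had a row. Of these 1 fell and none rose, beside 17.6% and 15.0% of all transcript clusters. By sign alone 4 were higher and 4 lower, beside 51.3% and 48.7%. So few genes cannot show whether neighbours moved with the transferases, and this was not tested. *Sh3pxd2a* reached -0.50 without control replicate 3.

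As background to these loci, 218 named genes of chromosome 3 were on the table, of which 53 rose (24.3%, the selected mu genes among them, beside 15.0% of all transcript clusters) and 34 fell. Of the 208 of chromosome 19, 30 rose (14.4%, *Gsto1* among them) and 41 fell. By sign 58.7% and 37.5% were higher, beside 50.3% of all 5314 genes with a chromosome; the difference between chromosomes was not tested.

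**Figure D3:**
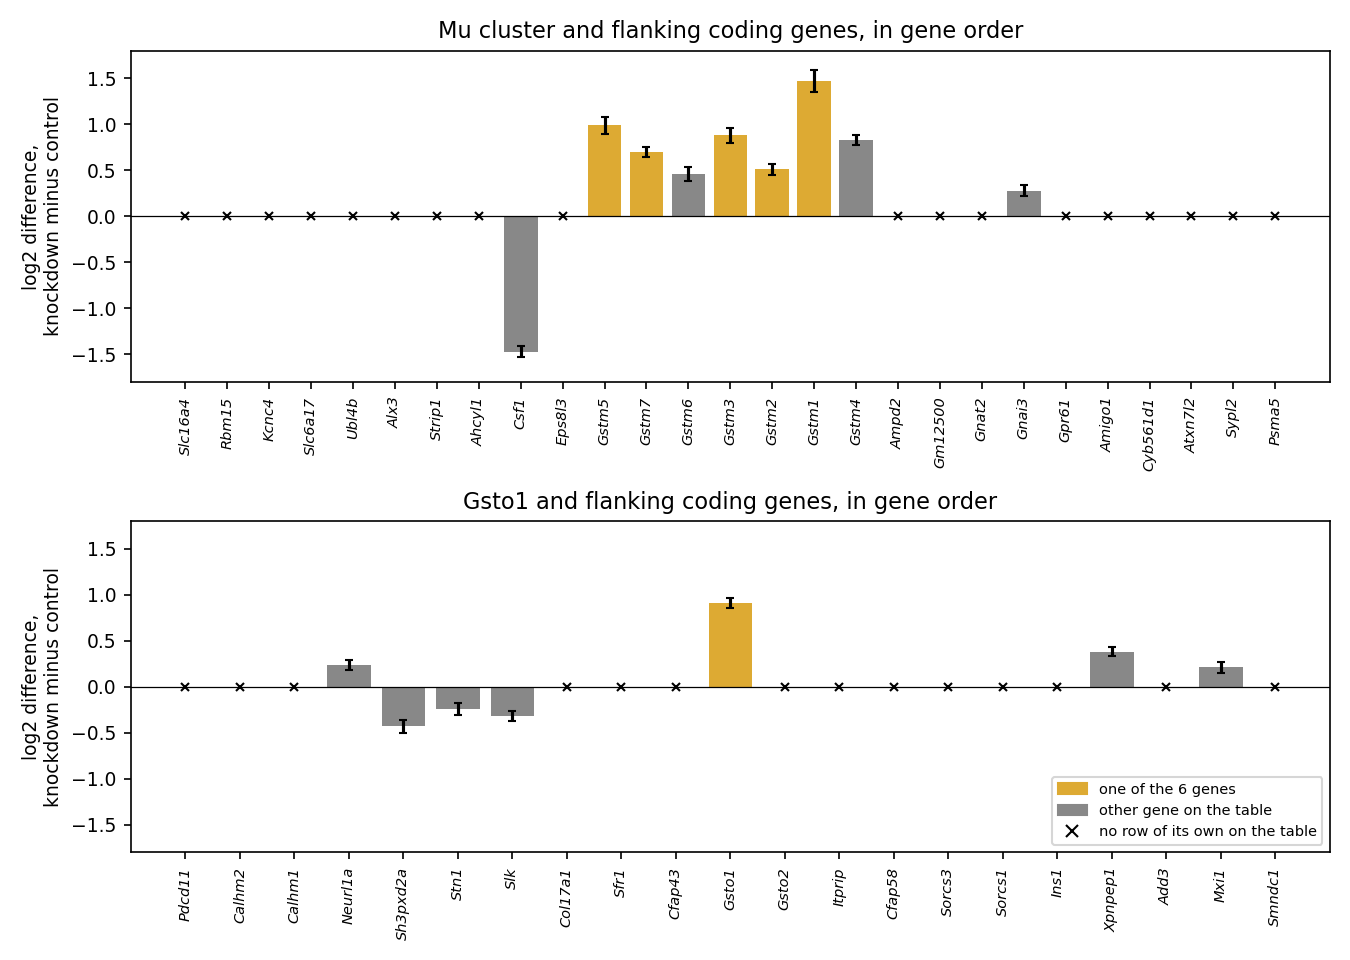
Log2 difference (knockdown minus control, bars with limma standard error) of coding genes in RefSeq order, the 7 mu genes with 10 genes on each side above and *Gsto1* with 10 on each side below; crosses mark genes with no row of their own on the table and carry no value. The 7 mu bars all stand above 0, with *Csf1* (-1.47) below 0 on one side and *Gnai3* (0.28) on the other.

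Of 149 genes in the lists of glutathione and redox metabolism, 53 were on the table; 9 of these rose, *Gstm4* and *Mgst2* among them (17.0%, beside 15.0% of all transcript clusters) and 7 fell (13.2%, beside 17.6%), shares near those of the table as a whole. Genes not on the table have no value here.

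Among genes of glutathione synthesis and turnover, 10 of 19 were on the table, with a median log2 difference of -0.26. Of the 10, 2 fell (20.0%, beside 17.6% of all transcript clusters) and 1 rose (10.0%, beside 15.0%), shares near those of the table. *Gclc*, the catalytic subunit of the enzyme that makes gamma-glutamylcysteine and the rate-limiting step of synthesis, had 1943, 1868 and 1820 in the control and 944, 950 and 982 in the knockdown. It fell to 51.1% of the control level, a log2 difference of -0.97 (standard error 0.051, adjusted p = 2.63e-07 from limma). *Cbs*, which directs homocysteine towards cysteine, had 921, 876 and 879 against 458, 482 and 532 and also fell, with -0.86 (standard error 0.064, adjusted p = 2.48e-06 from limma). *Gss*, which adds the glycine in the second step of synthesis, had 289, 286 and 288 against 398, 437 and 398 and rose, with 0.51; it had 0.47 without knockdown replicate 2.

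The rest of that list stayed under the fold. *Gclm*, the modifier subunit that works with GCLC, had -0.26, the cystine importer *Slc7a11* -0.29, its partner *Slc3a2* -0.14, the glutathione reductase gene *Gsr* -0.26 and *Ggt7* -0.36. *Chac1*, which degrades glutathione, had 0.34 and *Ggct* 0.43.

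Of 18 other enzymes that use glutathione, 6 were on the table. *Esd*, which acts on S-formylglutathione, rose on its brighter transcript cluster (0.51) and had 0.39 on its dimmer one; the brighter one had 0.47 without control replicate 3 and was at the threshold, 0.49, without knockdown replicate 2, where it was no longer called. The peroxidases *Gpx1* and *Gpx4* had -0.32 and 0.22. In the thioredoxin list (8 of 20 on the table) *Txnip*, the inhibitor of thioredoxin, had 145, 147 and 134 in the control and 365, 408 and 405 in the knockdown, a rise of 1.47 (standard error 0.063, adjusted p = 7.08e-08 from limma), as large as that of *Gstm1*. *Msrb3*, a methionine sulphoxide reductase, fell (-0.59). *Cat*, which encodes catalase, had 827, 718 and 627 against 1324, 1406 and 1373 and rose by 0.93 (standard error 0.090, adjusted p = 1.46e-05 from limma), while *Sod1* had -0.14.

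From a list of 24 textbook targets of NRF2 other than the transferases, 12 were on the table; 4 fell (33.3%, beside 17.6% of all transcript clusters), none rose, and by sign 10 of the 12 were lower, beside 48.7% of all transcript clusters; whether the list stands apart was not tested. The list shares *Gclc*, *Gclm*, *Slc7a11* and *Gsr* with that of glutathione synthesis and *Abcc1* with that of the exporters. Its median log2 difference was -0.34, and these counts were the same after median centring and after quantile normalization. Beside *Gclc*, the genes that fell were *Nqo1*, the quinone reductase most often used as a marker of NRF2 activity, *Cbr3*, a carbonyl reductase, and *Pgd*, which supplies NADPH in the pentose phosphate pathway. *Nqo1* had 312, 321 and 258 in the control and 191, 206 and 176 in the knockdown, a log2 difference of -0.63 (standard error 0.091, adjusted p = 1.60e-04 from limma). *Cbr3* had -0.54 and *Pgd* -0.52. *Hmox1*, heme oxygenase, had 1251, 1083 and 1111 against 883, 893 and 844, a difference of -0.39 that is under the fold. The 2 above 0 were *Tkt* (0.15) and *Blvrb* (0.22).

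Of 13 genes that control NRF2, 5 were on the table. *Btrc*, a substrate receptor of a ubiquitin ligase that takes NRF2 among its targets, had 770, 732 and 742 in the control and 1317, 1418 and 1386 in the knockdown and rose by 0.88 (standard error 0.052, adjusted p = 6.30e-07 from limma). *Maff*, a small MAF partner, had 0.48, just under the fold, and *Nfe2l1*, *Bach2* and *Rbx1* had -0.24, 0.18 and 0.30. Neither *Nfe2l2*, the gene for NRF2, nor *Keap1* had a row of its own.

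Exporters of glutathione conjugates did not pass the fold. *Abcc1* (-0.44), *Abcc3* (-0.44) and *Abcc5* (-0.19) were the 3 of 8 on the table; *Abcc1* is also counted among the NRF2 targets. In the list of other xenobiotic enzymes, 4 of 20 were on the table. *Arnt*, the partner of the aryl hydrocarbon receptor, rose narrowly (0.49; it had 0.44 without control replicate 3 and 0.47 without knockdown replicate 3), *Tpmt*, a thiopurine methyltransferase, rose (0.61) and *Aox1*, an aldehyde oxidase, fell (-0.62). *Sult4a1*, a brain sulphotransferase, had 0.29.

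**Figure D4:**
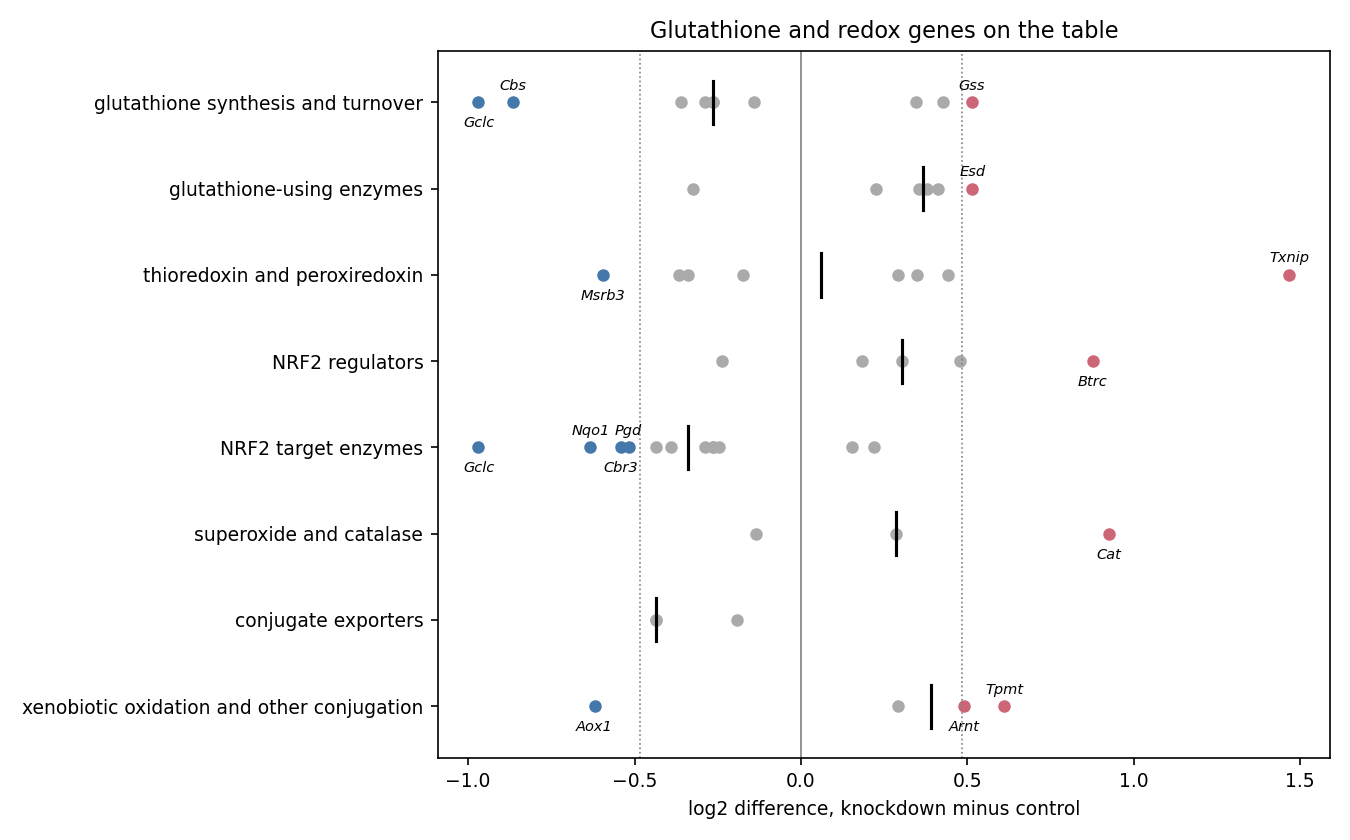
Log2 difference (knockdown minus control) of genes of glutathione and redox metabolism on the table, by list; red points rose, blue points fell, grey points lay under the fold of 1.4 (dotted lines) and the black stroke is the median of the list. *Gclc* (-0.97) and *Nqo1* (-0.63) are blue, and *Txnip* (1.47) lies farthest to the right.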

How the data were processed

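RNA from 3 control and 3 *Kap1* knockdown samples of N2A cells (200 ng each) was hybridised to GeneChip Mouse Gene ST arrays. GeneSpring was used by the authors for RMA, and the deposited values are intensities on a linear scale, in a whole-number table, used here, and an unrounded one (largest difference 0.5). The deposited tables hold the same 6951 transcript clusters. The array count limits the precision. RMA draws all arrays to a common distribution, and summarising probes that similar genes share can make their values move together. The platform annotation gave 5733 transcript clusters 1 gene, 384 several and 834 none; 5726 were matched to RefSeq (GRCm38.p6) by gene identifier. The array annotation's build was not given in the sources used here.

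The log2 values entered lmFit and eBayes (limma 3.58.1, R 4.3.3) with no block and with Benjamini-Hochberg adjustment over all 6951. Standard errors are moderated. A gene with several transcript clusters was read from the brightest. On simulated data of 6951 transcript clusters the fit called 98 of 100 changed by 0.75, 99 of 100 changed by 1.5 and 2 of 6751 unchanged; this checks the code, and its rate of false calls does not describe a table selected on the comparison. Counts and motif searches used Python 3.11.15 with pandas 2.3.3.

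The members, lists and tests were chosen with earlier results of these data known. Genes named were the 6 members, changed genes of the lists, flanking genes on the table, the 5 genes most like *Gstm1* and *Trim28*; others are named beside them to complete a list. Protein comparison was not made here. Alternatives were unrounded values, quantile normalization, median centring, a block for replicate number, trended robust eBayes, leaving out dim transcript clusters (mean log2 under 6 in both groups), a fold of at least 2, other rules for several transcript clusters per gene, and leaving out each array.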

Additional observations from a re-analysis of the deposited data

How the results depend on the processing

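The log2 differences of the 6 genes kept their sign and moved by less than 1 SD between arrays under every alternative run. Leaving out single arrays gave 1.36 to 1.64 for *Gstm1*, 0.87 to 1.06 for *Gstm5*, 0.79 to 0.93 for *Gstm3*, 0.89 to 0.94 for *Gsto1*, 0.68 to 0.72 for *Gstm7* and 0.46 to 0.55 for *Gstm2*. With the fold raised to 2, *Gstm1* was the 1 member of the 6 still past it. At that fold 505 transcript clusters passed in place of 2268, with 1 pathway gene (*Txnip*) that rose and 0 that fell, in place of 9 and 7. Flanking genes that fell numbered 1 to 2 when single arrays were left out. Same-numbered arrays of the 2 groups did not deviate together (correlations of -0.168, -0.132 and 0.042), and no control array correlated best with its own number. The numbers were therefore not treated as pairs. With a replicate block 2268 transcript clusters changed, as without it. A block leaves each log2 difference as it was, and the fold decides on this table, so the equal count is no check of pairing. The median log2 difference over all transcript clusters was 0.165, against 0.193 after median centring and 0.151 after quantile normalization. The arrays carry no depth, and a table selected on the comparison gives no estimate of unchanged genes.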

Other observations

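The transcript clusters shared by *Gstp1* and *Gstp2* give another case of numbers that point to different places. The one numbered 10464586, with 1491, 1477 and 1412 in the control and 1773, 1741 and 1727 in the knockdown, lies by number among genes of chromosome 19 (20 of the 20 nearest), the chromosome of both genes. The one numbered 10361152, with 1103, 1077 and 1028 against 1291, 1262 and 1260, lies among genes of chromosome 1 (14 of 20). Their log2 differences, 0.26 and 0.25, were nearly the same. For *Gstm3*, the only transcript cluster that carries its name lies by number among genes of chromosome 10. Probe sequences were not used here.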
